A study of Mus musculus with 15 samples.

Results

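The genes described are 38 members of the mouse Hox clusters, homeobox genes that record position along the head-to-tail axis. They were taken by symbol from a list of named Hox genes, and all 38 were found among the 55487 mouse genes of the deposited count table. The members lie in 4 clusters on chromosomes 6 (cluster A), 11 (B), 15 (C) and 2 (D), and bear paralogue numbers 1 to 13 from the anterior to the posterior end of a cluster. RNA came from flash-frozen cerebellum of 15 mouse samples and was depleted of ribosomal RNA before stranded libraries were sequenced. The mPPL-001 group (n = 5) was YG8JR mice, a model of Friedreich ataxia, that had received Sca1+ hematopoietic stem and progenitor cells (HSPCs) of YG8JR marrow, electroporated with Cas9 protein and a pair of guide RNAs named UP4 and DN4. The mock group (n = 4) was YG8JR mice that had received cells electroporated with the same guides but no Cas9. Recipients of both kinds were irradiated with 7 Gy at 2.5 to 3 months of age and drank water with antibiotics for 1 month. The untreated YG8JR group (n = 3) and the wild-type (WT) group (n = 3) had no transplant, and the labels give the same time, 6 months after transplant, for all 4 groups. The study asked whether mPPL-001 protects the nervous system. The labels also name a batch for each library: batch A held 3 mPPL-001, 2 mock, 2 YG8JR and 1 WT library, and batch B held 2, 2, 1 and 2. Whether each sample is another animal is not said in the labels, so a p-value here speaks of the spread among these samples, which may be technical.

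In the embryo, Hox genes are switched on in the order in which they lie on the chromosome, so that anterior members (low numbers) mark the hindbrain and posterior members mark the spinal cord at successively lower levels. Retinoic acid opens the clusters from the anterior end, Polycomb complexes keep the unused genes silent, and Hox proteins bind DNA together with the TALE homeodomain proteins Pbx, Meis and Pknox. The cerebellum arises from rhombomere 1, the segment of the hindbrain in front of the Hox domain. The medulla, the spinal cord and much of the pons arise from segments that express Hox genes and keep expressing many of them in the adult.

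Promoter sequence is shown for 4 members whose values recur below: the hindbrain genes Hoxa2 and Hoxa5, the trunk gene Hoxb8, and Hoxd13, the last gene of cluster D. Each window runs from 250 bases before to 50 bases after a RefSeq transcription start on GRCm38.p6, read 5′ to 3′ on the strand of the gene. The windows are chr6:52164782-52165081 (minus strand) for Hoxa2, chr6:52204538-52204837 (minus strand) for Hoxa5, chr11:96281655-96281954 (plus strand) for Hoxb8 and chr2:74667975-74668274 (plus strand) for Hoxd13. Capitals mark matches, on either strand, to TGATNNAT (the composite site of a Pbx and Hox pair), TGACAG (the core of Meis and Pknox sites) and AGGTCA (the repeated unit of retinoic acid receptor sites).
Hoxa2: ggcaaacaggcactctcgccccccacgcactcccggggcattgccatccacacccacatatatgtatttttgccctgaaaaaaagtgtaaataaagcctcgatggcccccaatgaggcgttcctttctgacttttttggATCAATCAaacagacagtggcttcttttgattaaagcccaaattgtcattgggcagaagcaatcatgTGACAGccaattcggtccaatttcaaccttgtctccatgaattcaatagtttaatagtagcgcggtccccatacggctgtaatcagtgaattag
Hoxa5: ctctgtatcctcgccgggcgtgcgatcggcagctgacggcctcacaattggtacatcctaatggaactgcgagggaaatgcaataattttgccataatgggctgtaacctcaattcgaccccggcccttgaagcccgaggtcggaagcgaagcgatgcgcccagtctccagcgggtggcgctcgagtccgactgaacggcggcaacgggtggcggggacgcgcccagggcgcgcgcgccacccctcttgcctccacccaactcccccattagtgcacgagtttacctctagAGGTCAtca
Hoxb8: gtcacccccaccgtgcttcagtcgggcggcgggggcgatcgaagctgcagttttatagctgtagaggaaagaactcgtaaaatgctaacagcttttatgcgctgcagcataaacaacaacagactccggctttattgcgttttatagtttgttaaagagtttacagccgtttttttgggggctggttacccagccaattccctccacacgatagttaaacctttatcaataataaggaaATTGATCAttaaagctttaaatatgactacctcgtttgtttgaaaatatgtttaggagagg
Hoxd13: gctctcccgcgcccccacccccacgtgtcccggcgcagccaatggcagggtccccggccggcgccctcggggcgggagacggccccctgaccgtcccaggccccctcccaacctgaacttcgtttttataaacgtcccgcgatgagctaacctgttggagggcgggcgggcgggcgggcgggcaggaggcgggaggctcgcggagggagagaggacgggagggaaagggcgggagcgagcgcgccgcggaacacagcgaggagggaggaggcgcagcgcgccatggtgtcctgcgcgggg
The Hoxa2 window held TGATNNAT at position -111 and TGACAG at -44, counted from the start site, and the Hoxb8 window held TGATNNAT at -11. The Hoxa5 window held AGGTCA at position 42, and the Hoxd13 window held none of these letters. RefSeq windows were at hand for 22 members, 24 windows in all. TGATNNAT occurred in 4 of the 24 (16.7%), against 8.85% of all 32851 RefSeq windows of the same length. AGGTCA occurred in 7 of them (29.2%, against 16.3% of all windows) and TGACAG in 2 (8.33%, against 19.2%). The median member window held 14.5 CG dinucleotides, against 7 over all windows, and ran from 4 to 45. No match is read here as a binding site, and no motif overlapped another in the windows shown.

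Libraries held 16847839 to 38760039 counts. CPM below are counts scaled to a common library total with TMM factors. Label checks on inflammation genes set WT replicate 3, the one WT library of batch A, below all 12 libraries of YG8JR mice. Its Clec7a and Cybb were 0.397 and 0.925 CPM, against lowest values of 1.12 and 2.22 CPM in YG8JR mice, and near those of WT replicates 1 and 2 (0.445 and 0.201 CPM for Clec7a, 0.992 and 0.955 CPM for Cybb). Its C4b, a complement gene, was 69.8 CPM, above 33.4 and 12.4 CPM in WT replicates 1 and 2, whereas YG8JR mice held 136 to 283 CPM. 3 libraries stood apart in Hox level. The libraries mPPL-001 replicates 3 and 4 lay far below the other 6 of batch A, and YG8JR replicate 3 lay far above them.

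Hox transcripts were plentiful in 6 libraries and scarce in the other 9. The summed level of the 38 members was 72.0, 1.18 and 4.94 CPM in mPPL-001 replicates 1, 3 and 4, 29.2 and 83.0 CPM in mock replicates 2 and 3, 32.5 and 433 CPM in YG8JR replicates 2 and 3, and 32.1 CPM in WT replicate 3, all of batch A. In batch B it was 0.907 and 2.31 CPM in mPPL-001, 0.423 and 0.809 CPM in mock, 1.37 CPM in YG8JR, and 1.68 and 0.654 CPM in WT. Within mock, YG8JR and WT every batch A library lay above every batch B library, and within mPPL-001 the batches overlapped because replicate 3 of batch A lay among the batch B values. The mean was 85.9 ± 143 CPM in batch A (SD, n = 8), against 1.16 ± 0.661 CPM in batch B (SD, n = 7), and in counts the sums were 22284 in batch A and 239 in batch B. In bulk RNA, fewer cells of a type and less RNA per cell cannot be told apart.

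**Figure D1:**
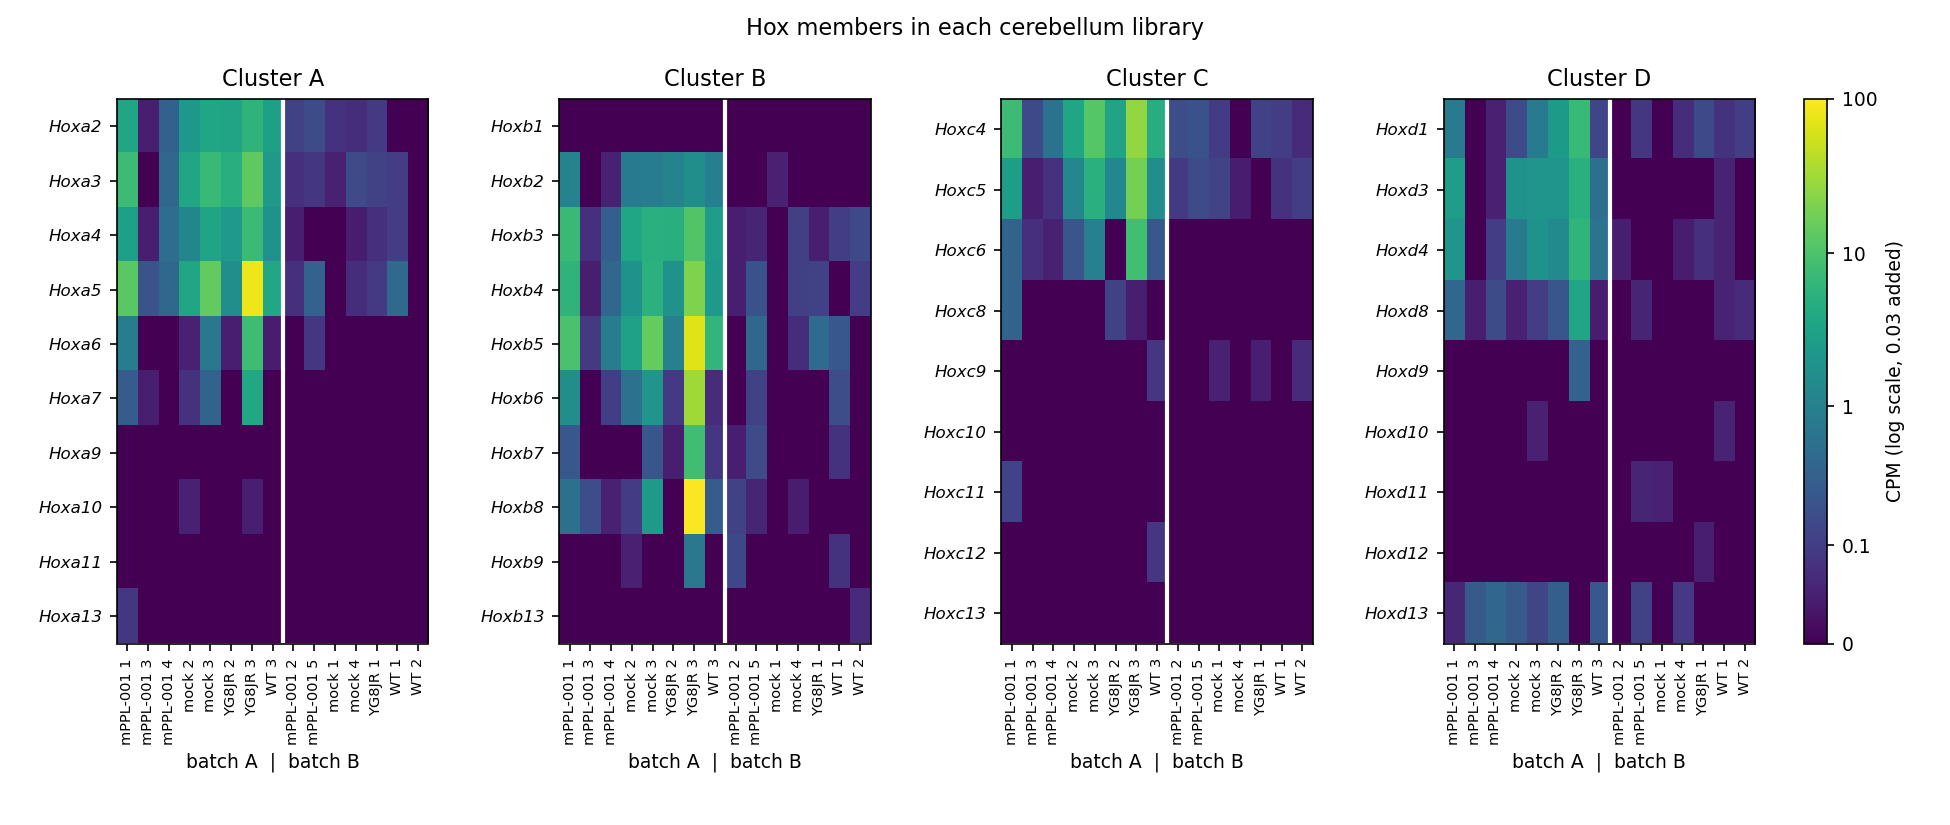
Level of each Hox member (rows, by cluster and paralogue number) in each library (columns, batch A left of the white line and batch B right of it), in CPM on a log colour scale with 0.03 added. The 6 Hox-rich libraries of batch A are bright for paralogue groups 2 to 5, YG8JR replicate 3 stays bright down to group 8 and reaches group 9, and mPPL-001 replicates 3 and 4 are nearly as dark as batch B.

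All 4 clusters took part. Cluster A summed to a median of 11.7 CPM in batch A (range 0.294 to 119) and 0.307 CPM in batch B (0 to 0.677). Cluster B had medians of 11.5 CPM in batch A (0.353 to 237) and 0.351 CPM in batch B (0.0325 to 0.996). Cluster C had 5.87 CPM in batch A (0.236 to 54.2) and 0.201 CPM in batch B (0.0279 to 0.359), and cluster D had 4.07 CPM in batch A (0.294 to 22.2) and 0.168 CPM in batch B (0.0292 to 0.279). The lowest batch A values belonged to mPPL-001 replicate 3 in every cluster, and the highest to YG8JR replicate 3. Over the 38 members, 5 had no count in any library (Hoxb1, Hoxa9, Hoxa11, Hoxc10 and Hoxc13), 9 had 1 to 9 counts in all, and 23 reached 10 counts in at least 1 library. Hoxa5 and Hoxb5 were the only 2 that reached 10 counts in a batch B library.

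Of the 2 group 1 members described, 1 had counts. Hoxb1, which specifies rhombomere 4, had 0 counts in all 15 libraries. Hoxd1, an anterior gene also known from pain-sensing neurons of the mouse, stood at 0.816, 0 and 0.0338 CPM in mPPL-001, 0.162 and 0.804 CPM in mock, 2.46 and 7.34 CPM in YG8JR and 0.132 CPM in WT replicate 3, in batch A. In batch B it ran from 0 to 0.149 CPM with a median of 0.0684 CPM. Hoxd1 was thus highest in both YG8JR libraries of batch A, and mPPL-001 replicates 3 and 4 and WT replicate 3 lay within the batch B range.

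Hoxa2, which patterns the anterior hindbrain and the second branchial arch, varied little among the Hox-rich libraries. It stood at 3.55, 0.0294 and 0.338 CPM in mPPL-001, 2.27 and 3.65 CPM in mock, 3.41 and 5.92 CPM in YG8JR and 3.01 CPM in WT replicate 3, in batch A. Its batch B values were 0.117 and 0.159 CPM in mPPL-001, 0.0651 and 0.0558 CPM in mock, 0.0894 CPM in YG8JR and 0 CPM in both WT libraries. Among the 6 Hox-rich libraries the highest Hoxa2 value, 5.92 CPM, was set against a lowest of 2.27 CPM, and mPPL-001 replicate 3 was below 5 of the 7 batch B libraries. Hoxb2, which acts in facial motor neurons of the mouse, ran from 0.844 to 1.63 CPM in those 6 libraries, with 1 count in the whole of batch B.

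The group 3 genes Hoxa3 and Hoxb3 pattern the middle and posterior hindbrain, and Hoxa3 is also needed for thymus and parathyroid. Hoxa3 stood at 7.79, 0 and 0.406 CPM in mPPL-001, 3.64 and 7.31 CPM in mock, 4.78 and 13.3 CPM in YG8JR and 2.40 CPM in WT replicate 3, in batch A, against 0 to 0.168 CPM in batch B (median 0.0797). Hoxb3 stood at 7.34, 0.0589 and 0.304 CPM in mPPL-001, 3.60 and 5.09 CPM in mock, 4.95 and 11.2 CPM in YG8JR and 2.80 CPM in WT replicate 3, against 0 to 0.151 CPM in batch B (median 0.0398). In both genes the order of the Hox-rich libraries was led by YG8JR replicate 3, and WT replicate 3 was the lowest of the 6. Hoxd3 ran from 0.555 to 5.12 CPM in the 6 libraries, with 1 count in batch B. Reads of some members may be shared with neighbours: in GENCODE M21, 62.3% of Hoxd3 exon bases and 52.3% of Hoxd4 exon bases are also exon of other genes on the same strand, each of the pair among them. On the opposite strand, Hoxb3os overlaps 52.9% of Hoxb3 and 27.3% of Hoxb2, and antisense genes overlap 25.4% of Hoxa3. Since the strand setting of the counting is not given in the sources used here, these levels are uncertain.

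Paralogue groups 4 and 5, which mark the caudal medulla and the upper spinal cord, gave the highest levels in most Hox-rich libraries. Hoxc4 stood at 7.79, 0.147 and 0.609 CPM in mPPL-001, 3.64 and 11.6 CPM in mock, 3.44 and 27.2 CPM in YG8JR and 4.63 CPM in WT replicate 3, in batch A, against 0 to 0.199 CPM in batch B (median 0.103). Hoxb4, whose expression begins near the boundary of rhombomeres 6 and 7, stood at 5.91, 0.0294 and 0.406 CPM in mPPL-001, 1.92 and 5.26 CPM in mock, 1.91 and 20.9 CPM in YG8JR and 2.30 CPM in WT replicate 3, against 0 to 0.199 CPM in batch B (median 0.101). The spread among Hox-rich libraries was wider than in group 2, with YG8JR replicate 3 on top and mock replicate 2 and YG8JR replicate 2 at the bottom. Hoxa4 and Hoxd4 ran from 1.20 to 7.49 CPM and from 0.634 to 5.95 CPM in those 6 libraries, and reached at most 0.103 and 0.0596 CPM in batch B.

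The Hox5 genes are needed in the mouse for phrenic motor neurons, which drive breathing. Hoxa5 stood at 12.6, 0.206 and 0.440 CPM in mPPL-001, 3.51 and 14.1 CPM in mock, 1.62 and 80.4 CPM in YG8JR and 3.81 CPM in WT replicate 3, in batch A, against 0 to 0.445 CPM in batch B (median 0.0585). Hoxb5 stood at 9.71, 0.0883 and 0.879 CPM in mPPL-001, 3.09 and 14.7 CPM in mock, 0.984 and 66.9 CPM in YG8JR and 6.29 CPM in WT replicate 3, against 0 to 0.477 CPM in batch B (median 0.0558). The 2 YG8JR libraries of batch A held the lowest and the highest level of the Hox-rich libraries in both genes. mPPL-001 replicate 3 lay inside the batch B range in both. Hoxc5 ran from 1.27 to 18.5 CPM in those 6 libraries and from 0 to 0.159 CPM in batch B.

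Paralogue groups 6 to 8, genes of the lower neck and trunk, were carried by YG8JR replicate 3. Hoxb6 stood at 1.63, 0 and 0.101 CPM in mPPL-001, 0.585 and 2.01 CPM in mock, 0.0868 and 31.6 CPM in YG8JR and 0.0529 CPM in WT replicate 3, against 0 to 0.171 CPM in batch B (median 0). Hoxc6, which specifies limb-level motor neurons, stood at 0.367, 0.0589 and 0.0338 CPM in mPPL-001, 0.227 and 1.00 CPM in mock, 0 and 8.46 CPM in YG8JR and 0.238 CPM in WT replicate 3, and had 0 counts in every batch B library. In both genes YG8JR replicate 2, of the same group and batch as YG8JR replicate 3, was at the level of batch B.

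Hoxb7 stood at 0.245, 0 and 0 CPM in mPPL-001, 0 and 0.235 CPM in mock, 0.0289 and 8.405 CPM in YG8JR and 0.0793 CPM in WT replicate 3, against 0 to 0.159 CPM in batch B (median 0). mPPL-001 replicate 1, mock replicate 3 and YG8JR replicate 3 lay above the batch B range, the last of them far above it. Hoxb8, known in the mouse from spinal cord circuits and from mutants that groom to excess, stood at 0.571, 0.177 and 0.0338 CPM in mPPL-001, 0.0974 and 2.48 CPM in mock, 0 and 95.7 CPM in YG8JR and 0.291 CPM in WT replicate 3, against 0 to 0.117 CPM in batch B (median 0). That single value of 95.7 CPM was the highest of any member in any library and rested on 3235 counts, whereas YG8JR replicate 2 had no Hoxb8 count. Hoxa6 and Hoxa7 stood at 8.08 and 3.79 CPM in YG8JR replicate 3 and at most 0.897 and 0.369 CPM elsewhere. Hoxd8 stood at 3.46 CPM in it and at most 0.408 CPM elsewhere. Hoxc8 went the other way, with 1 count in YG8JR replicate 3, 9 in mPPL-001 replicate 1 and 4 in YG8JR replicate 2.

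**Figure D2:**
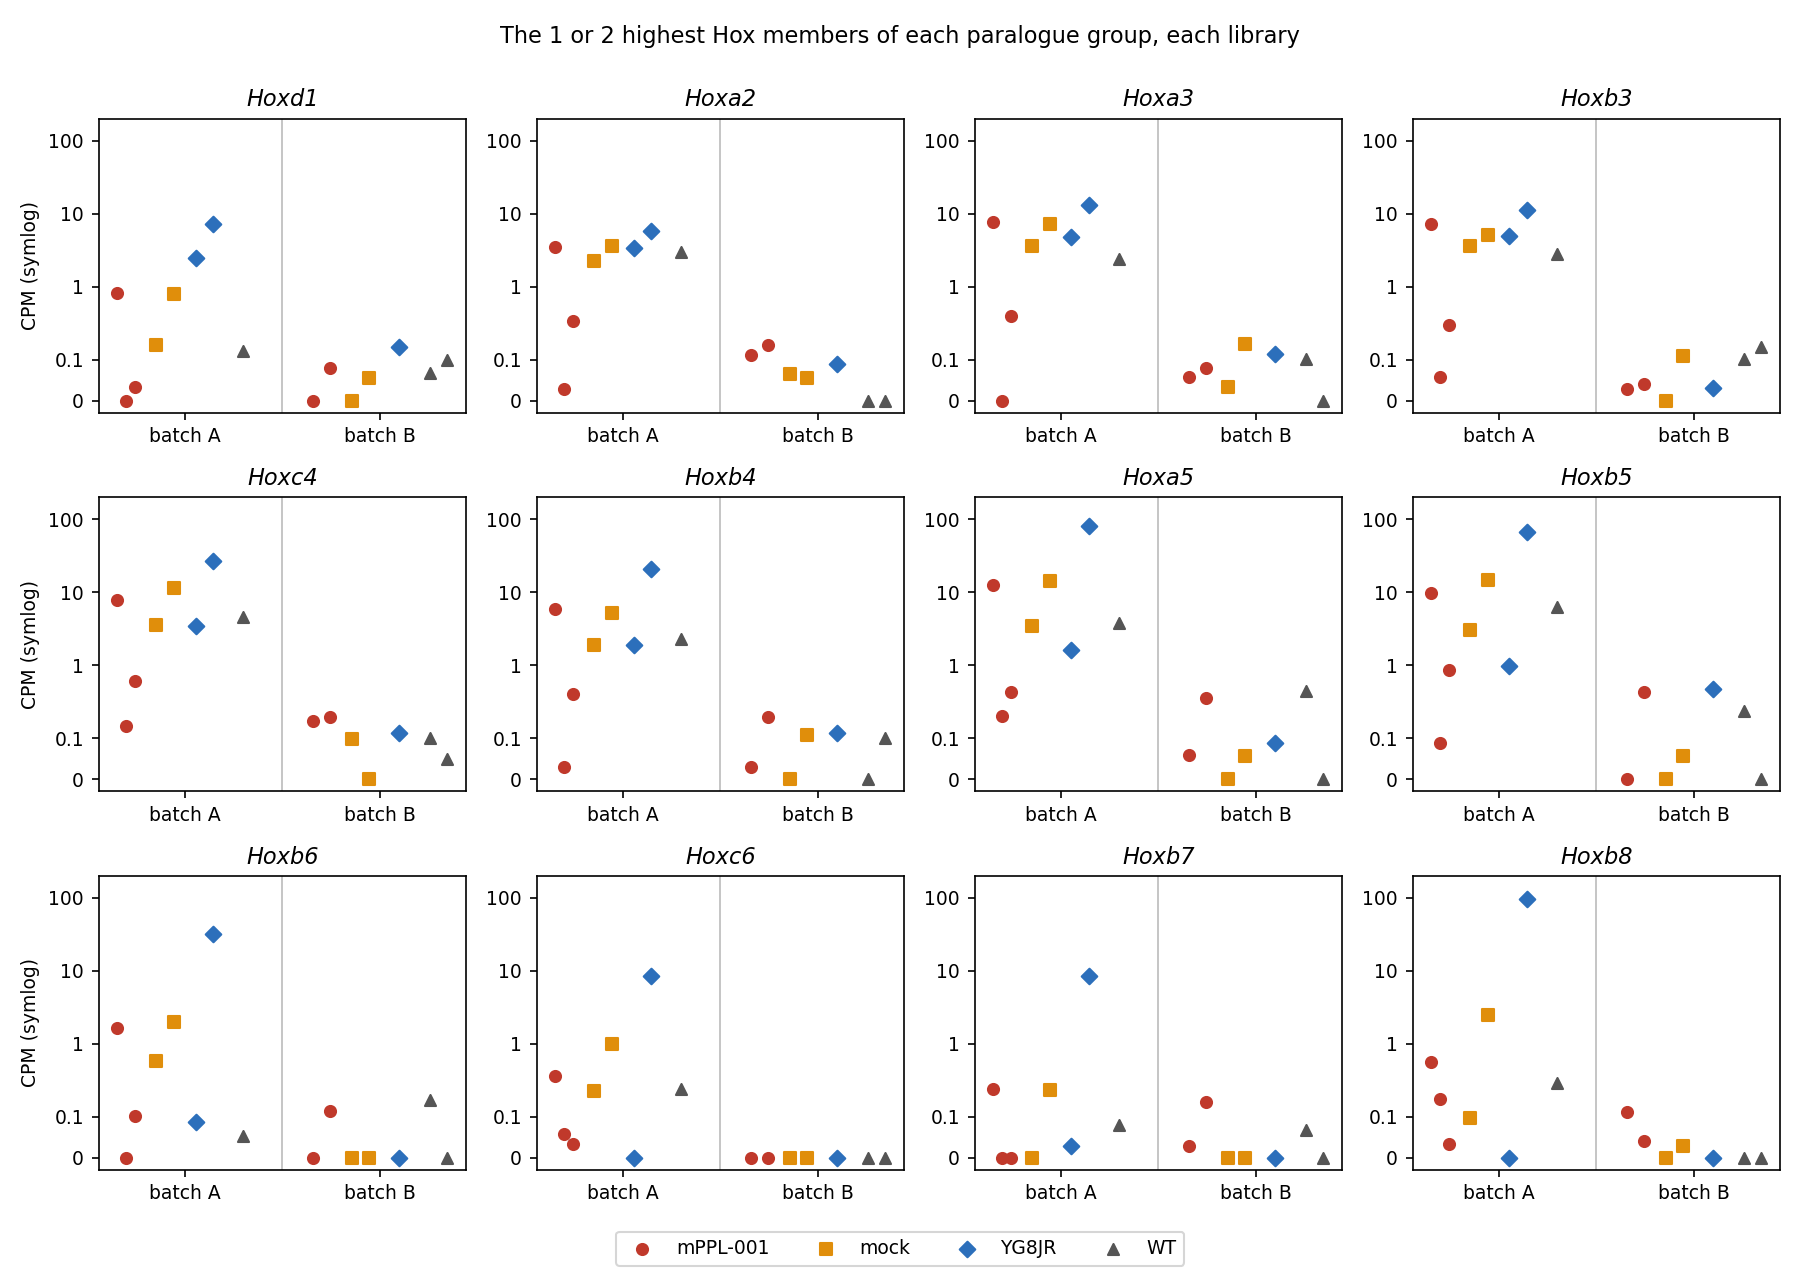
CPM (symlog axis, linear below 0.1) of 12 Hox members, up to 2 per paralogue group, in each library, with batch A left and batch B right and groups in the order mPPL-001, mock, YG8JR, WT. Hoxa2 forms a tight cluster among the 6 Hox-rich libraries (2.27 to 5.92 CPM), whereas Hoxb8 spans 0 to 95.7 CPM in the same libraries.

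The share of batch A signal that came from YG8JR replicate 3 climbed with the paralogue number. Of the CPM summed over the 8 batch A libraries, that library held 26.7% for Hoxa2, 24.8% for Hoxb2 and 31.6% to 35.8% for the group 3 genes. It held 37.9% to 54.1% for group 4, 60.5% to 68.9% for group 5 and 81.4% to 87.6% for group 6. It held 83.5% for Hoxa7, 93.5% for Hoxb7 and 96.3% for Hoxb8. Hoxd1 (62.5%), Hoxd8 (77.6%), Hoxc8 (5.78%) and Hoxd13 (0%) stood outside that order. Every one of the 18 members that passed the filter on low counts had its highest level in that library.

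The trunk-most groups 9 to 13 gave almost no counts, with an exception at the end of cluster D. Hoxb9 and Hoxd9, genes of the thoracic level, had 24 and 12 counts in YG8JR replicate 3, at 0.710 and 0.355 CPM. In the other 14 libraries Hoxb9 reached at most 5 counts and Hoxd9 had none. Hoxa9, a gene of blood stem cells, had 0 counts in all 15 libraries, and Hoxc9 had 6 counts in all. The group 10 to 12 genes, which act at the lumbar level and in the limb and kidney, had at most 3 counts each over all libraries, as had Hoxa13, Hoxb13 and Hoxc13. A count of 0 in a library of this depth bounds a member at 3 counts of the library total, for counting error only.

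Hoxd13, the last gene of cluster D and known for digits and the urogenital tract, was counted in batch A, where the next Hox genes of its cluster were not. It had 1, 9 and 12 counts in mPPL-001 replicates 1, 3 and 4, 8 and 4 in mock, 11 and 0 in YG8JR replicates 2 and 3, and 9 counts in WT replicate 3, in batch A. In batch B it had 3 counts in mPPL-001 replicate 5 and 3 in mock replicate 4 and none in the other 5 libraries. The library with the most counts of trunk Hox genes thus had none. The libraries mPPL-001 replicates 3 and 4, with the lowest Hox sums of batch A (1.18 and 4.94 CPM), were among the highest. Hoxd12 and Hoxd11, the next members along the cluster, had 1 and 2 counts over all libraries, none of them in batch A. Evx2, a homeobox gene of spinal and brainstem interneurons, is the neighbour of Hoxd13 on its other side in RefSeq. Evx2 stood at 3.55, 5.27 and 9.74 CPM in mPPL-001, 3.995 and 4.79 CPM in mock, 5.41 and 3.88 CPM in YG8JR and 4.28 CPM in WT replicate 3, in batch A, and at 0.352 to 3.66 CPM in batch B. It was called higher in batch A (log2 fold change 1.52, edgeR adjusted p = 0.0124), and like Hoxd13 it was highest in mPPL-001 replicate 4. Hoxd13 did not pass the filter on low counts and was not tested; it was called higher in batch A when no filter was used.

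**Figure D3:**
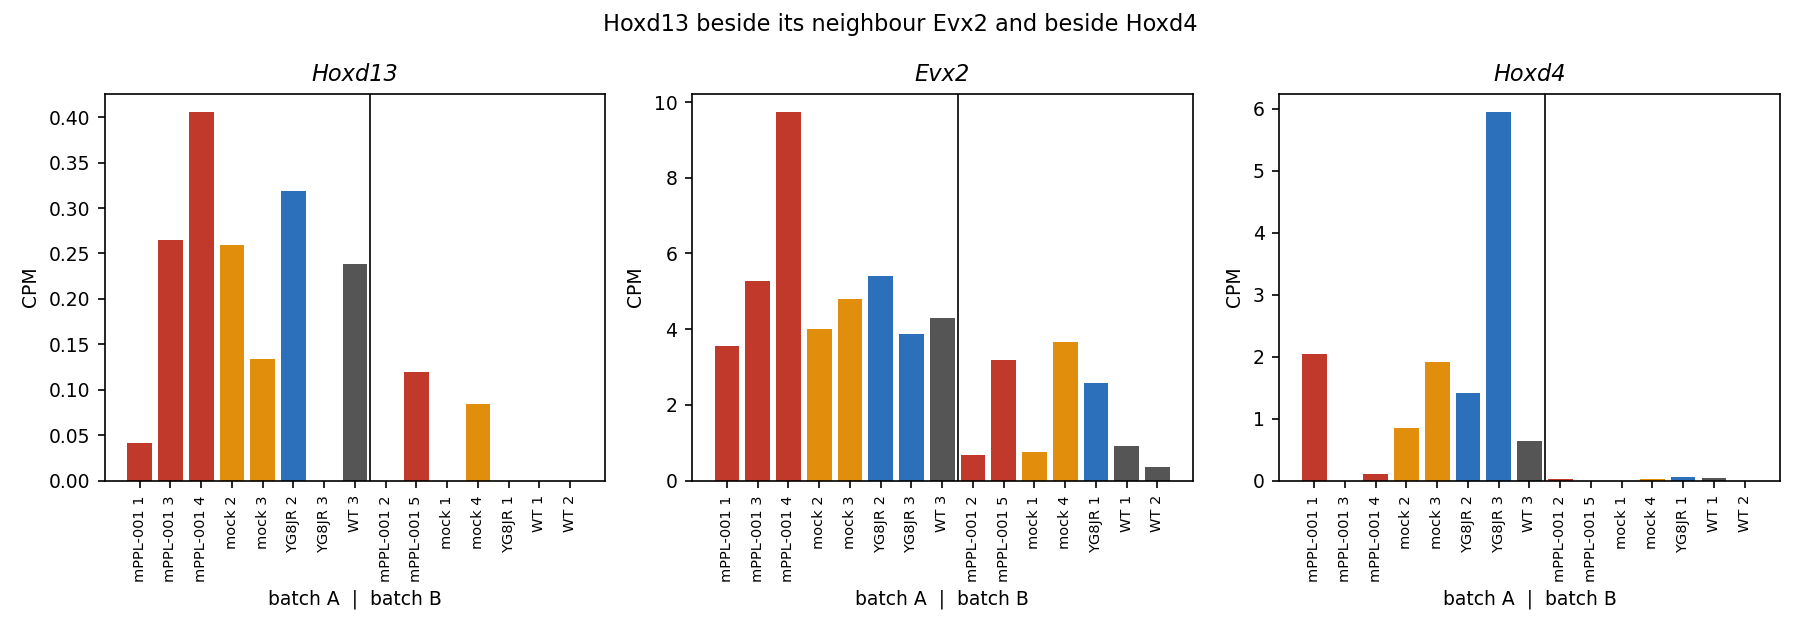
CPM (linear axes) of Hoxd13, of its neighbour Evx2 and of Hoxd4 in each library, batch A left of the line and batch B right of it. Hoxd13 is at 0 in YG8JR replicate 3, where Hoxd4 is highest (5.95 CPM), and Hoxd13 and Evx2 are both highest in mPPL-001 replicate 4 (0.406 and 9.74 CPM).

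Levels per kilobase of exon allow paralogue groups to be compared within a library. Groups 4 and 5 together held 67.1% of the per-kilobase Hox sum in mPPL-001 replicate 1, 66.7% in mPPL-001 replicate 4, 61.5% and 72.0% in mock replicates 2 and 3, 47.1% and 52.9% in YG8JR replicates 2 and 3, and a share of 70.3% in WT replicate 3. Groups 1 to 3 held 49.9% in YG8JR replicate 2 and 7.43% in YG8JR replicate 3, and 17.1% to 32.7% in the other 5 libraries. Groups 6 to 8 held 39.4% in YG8JR replicate 3, against 1.84% to 10.7% in the other 6. YG8JR replicate 2 was thus the most anterior profile and YG8JR replicate 3 the most posterior one, although they share group and batch. mPPL-001 replicate 4 held shares within the range of the other libraries for these 3 spans at a per-kilobase sum of 2.01, against 28.2 in mPPL-001 replicate 1. mPPL-001 replicate 3 and the batch B libraries had too few counts for a profile.

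Member by member, the mean per-kilobase level over all 15 libraries was highest for Hoxa5 (4.18), followed by Hoxb8 (2.52), Hoxb5 (2.48), Hoxc4 (1.55), Hoxb6 (1.23) and Hoxb4 (1.02). That order leans on YG8JR replicate 3, and neighbours in it did not differ beyond the spread between libraries. Clusters also differed in profile. Cluster B held 50.3% of the per-kilobase sum in YG8JR replicate 3 and 21.97% to 33.7% in the other 6 libraries, and cluster D held 20.8% in YG8JR replicate 2 and 4.13% to 14.2% in the other 6.

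**Figure D4:**
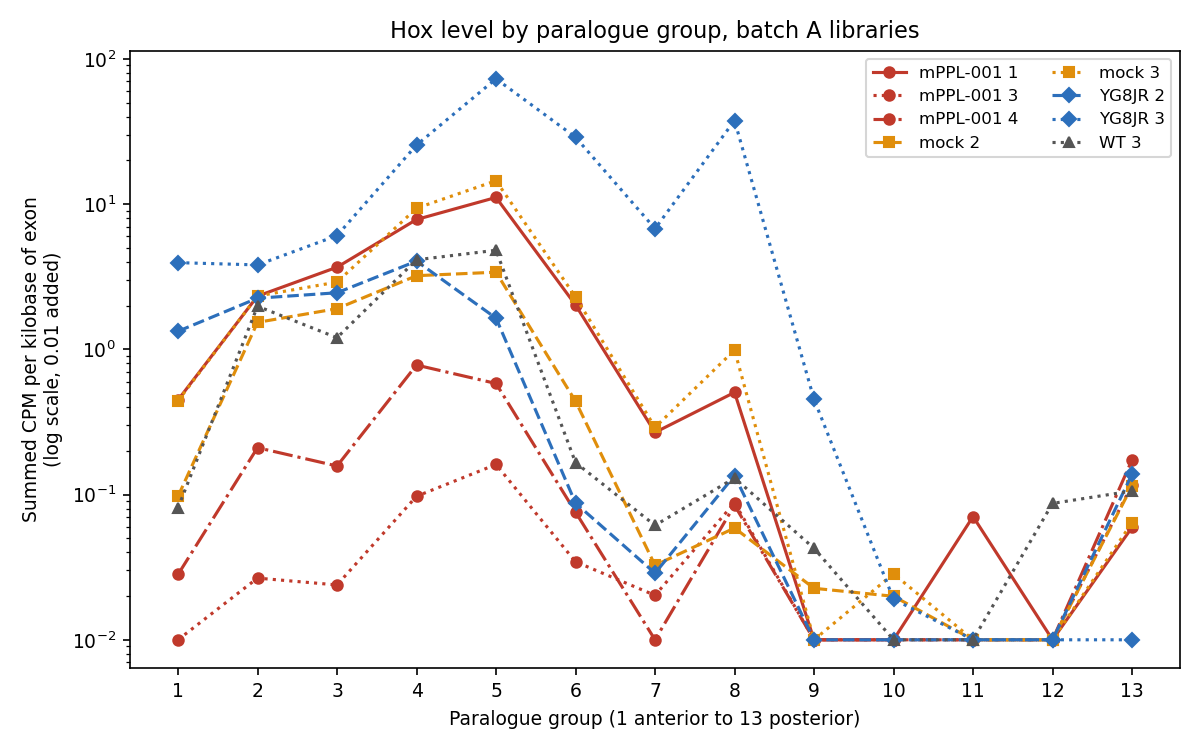
Summed CPM per kilobase of exon (log axis, 0.01 added, so that the lowest points are 0) by paralogue group in each of the 8 batch A libraries. Lines peak at group 4 or 5, YG8JR replicate 3 has another peak at group 8, and group 13, which is Hoxd13 alone except in mPPL-001 replicate 1, lies above group 12 in every library but YG8JR replicate 3.

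Batches were compared with edgeR's quasi-likelihood test in a model with group and batch. Of the 38 members 18 passed the filter, which needs counts in several libraries, and these had to be libraries of batch A. The tested members were therefore bound to be higher there, and the count is a description. Of these 18, 16 were called higher in batch A and 0 lower with edgeR (18 had an unadjusted p under 0.05, all higher). Over all 24989 genes tested, 15.5% were called higher and 16.5% lower. DESeq2 called 15 and voom with sample weights called 11. The median log2 fold change of the 18 was 5.71, or 5.64 with Hoxc6 and Hoxa7, at 0 in batch B, set at a floor of 3 counts over the batch, beside -0.02 over all genes. Of these 2, Hoxc6 was at least 90.3-fold higher in batch A on mean CPM.

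The SE was 0.85 to 1.30 for the 9 tested members of groups 2 to 4, and 1.14 to 2.34 for the 8 of groups 5 to 8. The log2 fold change in batch A was 5.02 for Hoxa2 (SE 0.85, adjusted p = 0.000458), 5.60 for Hoxa3 (SE 0.98) and 5.94 for Hoxb3 (SE 0.97, edgeR adjusted p = 0.000369). It was 5.46 for Hoxb4 (SE 1.07) and 5.69 for Hoxc4 (SE 0.99, edgeR adjusted p = 0.000643). The errors were larger for Hoxa5 (5.87, SE 1.40, edgeR adjusted p = 0.00655), Hoxb5 (5.73, SE 1.30) and above all Hoxb8 (6.60, SE 2.34, edgeR adjusted p = 0.0477). The Hoxb8 value was 3.63 without YG8JR replicate 3 (edgeR adjusted p = 0.0266), and the call ended without mock replicate 1 or 4, YG8JR replicate 1, or any 1 of the 3 WT libraries (edgeR adjusted p from 0.0741 to 0.191). Without mPPL-001 replicate 1 or mock replicate 3 Hoxb8 failed the filter and was not tested. Hoxd1 had 3.33 (SE 1.01, edgeR adjusted p = 0.02). Hoxb6 (4.91, SE 1.88, edgeR adjusted p = 0.0632) and Hoxa7 (edgeR adjusted p = 0.0566) were not called. With all 8 batch A libraries, 0 members lay above the highest batch B library in every batch A library, against 6.09% of all genes tested. With mPPL-001 replicates 3 and 4 left out, 12 members did so (8.04% of all genes) and 17 were called higher (13.7% of all genes). Those 2 libraries were left out because their Hox level was low, so that choice fixed the direction of both counts, and nothing is read from them.

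Noncoding RNAs of the clusters were higher in batch A too. Of 17 listed, 5 passed the filter, again through batch A libraries, and all 5 were called higher in batch A, with a median log2 fold change of 5.22, or 4.80 with Hoxaas3, at 0 in batch B, set at the floor of 3 counts. Their direction was thus bound as it was for the members, and 15.5% of all genes were called higher. Hoxaas2, antisense in cluster A, had 5.98 (SE 1.02, edgeR adjusted p = 0.000507), Haglr, beside Hoxd1, had 3.90 (SE 0.75), Hoxb3os had 5.22 (SE 1.12) and Hotairm1, at the anterior end of cluster A, had 3.34 (SE 0.80). Hoxaas3 was at least 27.8-fold higher in batch A on mean CPM. In mPPL-001 replicates 3 and 4 Hoxaas2 stood at 0 and 0.304 CPM, and in mPPL-001 replicate 1 at 5.63 CPM, the same order as the coding members.

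Markers of brain region and cell type differed between the same libraries. Among all genes tested, 15.5% were called higher in batch A and 16.5% lower. Of 19 genes of medulla and pons neurons 15 were called higher in batch A and 0 lower, and their summed level was 605 to 1963 CPM in the 8 batch A libraries, against at most 359 CPM (lowest 37.6) in batch B. The genes with the smallest p were Lhx4 (log2 fold change 4.13, SE 0.31), Tbx20 (6.21, SE 0.87), Glra1 (3.92, SE 0.55) and Slc5a7 (4.78, SE 0.77). Of the called genes, Tbx20 had at most 8 counts in any batch B library, and Phox2a, Isl1 and Slc18a3 reached 10 counts in 1 or 2 of them, so they passed the filter mainly through batch A, where they are high, and their calls are descriptions. Slc6a5, which takes up glycine at inhibitory synapses, stood at 615, 43.7 and 78.1 CPM in mPPL-001, 477 and 672 CPM in mock, 941 and 646 CPM in YG8JR and 383 CPM in WT replicate 3, in batch A, against 24.8 to 92.9 CPM in batch B. The libraries mPPL-001 replicates 3 and 4, low in Hox, were thus at the batch B level of Slc6a5. Their Chat values, of cholinergic neurons, were 11.1 and 6.83 CPM, above the batch B range of 0 to 3.94 CPM, in which Chat was at 0 in WT replicate 2. Slc18a3, of the same neurons, was at 0 in mPPL-001 replicate 2, mock replicate 1 and WT replicate 2. No gene of the list was at 0 in batch A, and 7 of 19 were at 0 in WT replicate 2.

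Of 12 granule neuron genes 0 were called higher and 11 lower in batch A, with sums of 241 to 1103 CPM in batch A, against 2944 to 6367 CPM in batch B. For this and the next lists, the shares over all genes were 15.5% higher and 16.5% lower. Etv1 (log2 fold change -2.09, SE 0.18), Pax6 (-2.32, SE 0.21), Grm4 (-2.01, SE 0.20) and Zic1 (-2.98, SE 0.31) had the smallest p. Of 12 Purkinje cell genes 0 were called higher and 10 lower, with sums of 669 to 5975 CPM in batch A, against 4812 to 18460 CPM in batch B. Gabra6, a granule neuron receptor subunit, stood at 0.449, 72.7 and 0.575 CPM in mPPL-001 replicates 1, 3 and 4 and at 209.6 to 493.2 CPM in batch B. Of 10 choroid plexus genes 0 were called by edgeR (0 at an unadjusted p under 0.05, and 0 to 2 lower over the other fits), and the sums ran from 299.5 to 6911 CPM in batch A, against 208 to 7972 CPM in batch B. Of 12 blood cell genes, 9 were tested and 1, Kit, was called, lower in batch A (log2 fold change -2.73, edgeR adjusted p = 6.79e-05). Kit, which cerebellar interneurons also express, had a mean of 53.9 CPM in batch A, against 314 CPM in batch B, and held most of the list sum in batch B (69.5 to 209.6 CPM in batch A, against 144 to 515 CPM in batch B). The other 8 tested blood genes were not called. Of 15 fibroblast, bone and muscle genes 12 were tested, with 1 called higher and 2 lower. Tissue labelled cerebellum thus had low granule and Purkinje markers in batch A. The part of these differences in the Hox values was not tested.

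Factors of the segment in front of the Hox domain did not all move one way. Of 12 listed factors of rhombomere 1 and the isthmus 10 were tested, of which 5 were called higher and 1 lower in batch A. Beside that, 15.5% of all genes were called higher and 16.5% lower. En2, which the cerebellar territory expresses, was the lower one (log2 fold change -3.30, SE 0.42, edgeR adjusted p = 8.24e-05), and Pax8 (5.53, SE 0.65), Lmx1b (2.99, SE 0.55) and Gbx2 (3.59, SE 0.91) were higher. Pax8 and Gbx2 had at most 9 and 6 counts in any batch B library, so they passed the filter through batch A and were bound to be higher there. Pax5, which marks the midbrain and hindbrain boundary, stood at 28.4 and 33.7 CPM in mPPL-001 replicates 3 and 4, against 2.00 to 5.52 CPM in the other 6 batch A libraries and 0.0976 to 7.49 CPM in batch B. Six3, a forebrain factor, stood at 11.7 and 14.7 CPM in those 2 libraries, against 0.0868 to 0.444 CPM in the other 6 and 0.0298 to 8.88 CPM in batch B. These 2 genes were named after their values were seen. The 2 Hox-poor libraries of batch A thus had the highest Pax5 and Six3 of all 15. Other genes of these lists went either way in mPPL-001 replicates 3 and 4. En1 (17.5 and 15.6 CPM) and Emx2 (2.36 and 3.45 CPM) were also highest of all 15 libraries. Pax2 (5.478 and 3.585 CPM) was lowest of all 15, and Gbx2 (0.118 and 0.0338 CPM) and Lmx1b (4.92 and 4.09 CPM) were lowest of batch A. Neurod6 (2.83 and 1.12 CPM) was not raised. Of 12 forebrain and midbrain factors 10 were tested, with 2 called higher and 1 lower in batch A, beside 15.5% and 16.5% of all genes.

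**Figure D5:**
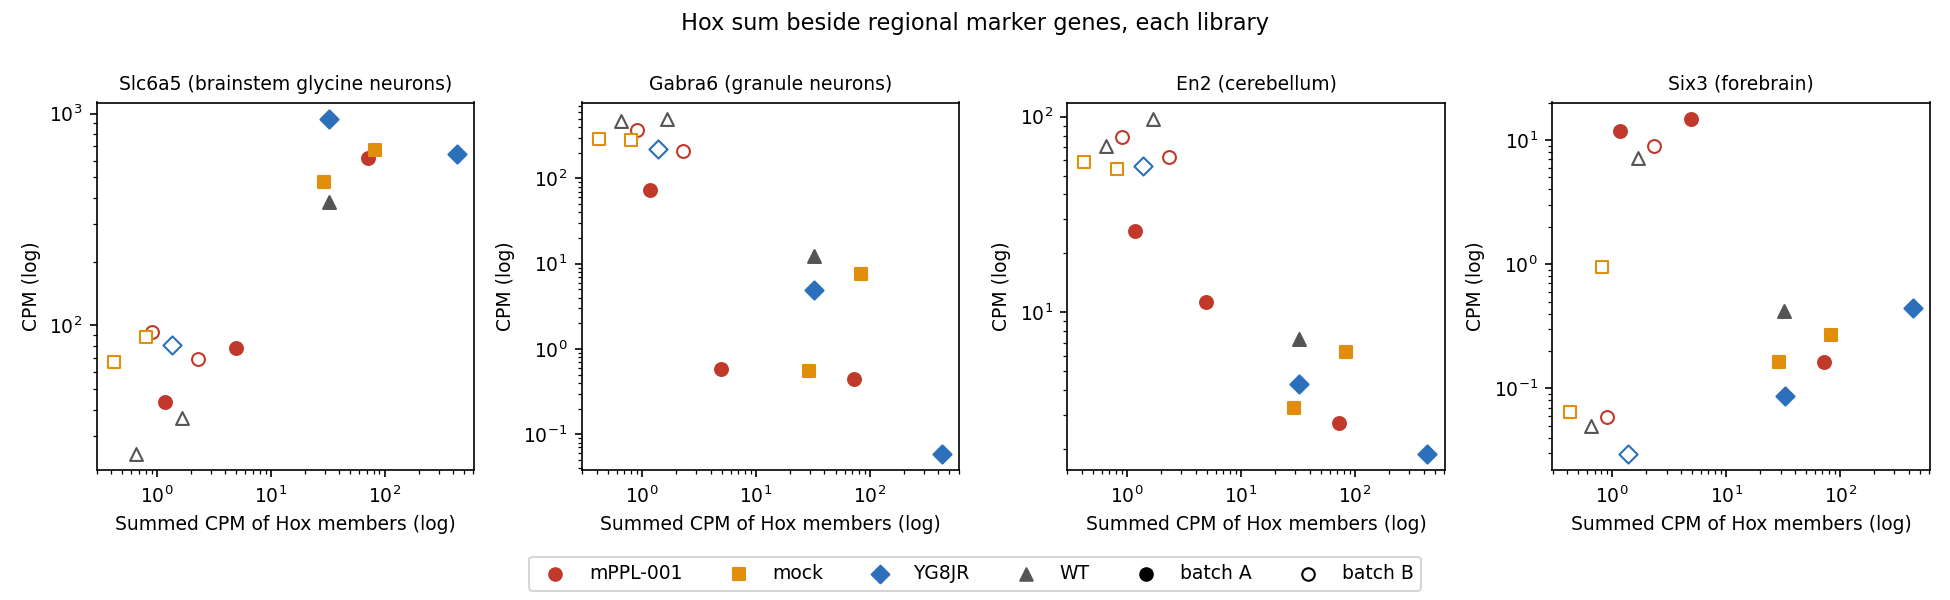
CPM (log axes) of 4 regional marker genes against the summed CPM of the Hox members in each library, filled symbols for batch A and open symbols for batch B. Hox-rich libraries are high in Slc6a5. All batch A libraries, mPPL-001 replicates 3 and 4 among them, lie below batch B in Gabra6 and En2. Those replicates (Hox sums of 1.18 and 4.94 CPM) lie beside batch B for Slc6a5 and above all others for Six3.

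The partners and regulators of Hox genes had median differences near 0, but the called Polycomb and Trithorax genes were all lower in batch A. Of 9 TALE cofactors 3 were called higher and 1 lower in batch A, with a median of 0.32. All genes had shares of 15.5% higher and 16.5% lower. The mean Meis2 level was 145 CPM in batch A (SD 37.96, n = 8), against 26.8 CPM in batch B (SD 20.4, n = 7) (log2 fold change 2.37, SE 0.53, edgeR adjusted p = 0.00427). Meis1, which granule neurons also express, was lower in batch A (-0.69, SE 0.17, edgeR adjusted p = 0.00754), and Pbx4 (0.77, SE 0.21) and Meis3 (0.32, SE 0.11) were higher. In mPPL-001 replicates 3 and 4 Meis2 stood at 96.9 and 125 CPM, above all of batch B. Their Hox sums were 1.18 and 4.94 CPM, against at most 2.31 CPM in batch B.

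Of 21 listed genes linked to Hox induction, with Cyp26 genes and binding proteins among them, 17 were tested. Of these, 5 were called higher and 2 lower in batch A. Over all genes these shares were 15.5% and 16.5%. Crabp1, a retinoic acid binding protein, had 3.66 (SE 0.86, edgeR adjusted p = 0.00449), and the receptor gene Rxrg had 1.90 (SE 0.50). Crabp1 had at most 6 counts in any batch B library and likewise passed through batch A. Rara, a retinoic acid receptor, was lower (-0.60, SE 0.13, edgeR adjusted p = 0.00248). Of 19 Polycomb and Trithorax genes 0 were called higher and 10 lower in batch A, with a median of -0.30, against 16.5% of all genes called lower. Their summed level was 944 to 1047 CPM in batch A, against 1117 to 1570 CPM in batch B. Suz12 (-0.74, SE 0.09) and Ezh2 (-0.92, SE 0.11), subunits of the complex that marks silent Hox genes, and Rnf2 (-0.71, SE 0.12) and Phc2 (-0.51, SE 0.07), subunits of the other Polycomb complex, were among the lower ones. Each of these 4 had an edgeR adjusted p of at most 0.000335.

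The comparisons between groups called no member. In each of the 6 comparisons 0 of the 18 tested members passed with edgeR, DESeq2 or voom. Beside that, edgeR called 0% of all genes for mPPL-001 over mock, 0.0320% for mPPL-001 over YG8JR, 0.0360% for mock over YG8JR, 0.172% for YG8JR over WT, 0.208% for mPPL-001 over WT and 0.440% for mock over WT. The other tools called far more of the 24989 genes in the comparisons with WT. DESeq2 called 2213 for YG8JR over WT, 655 for mPPL-001 over WT and 2648 for mock over WT. Voom called 1909, 668 and 2567 in the same order. For mPPL-001 over YG8JR DESeq2 called 22 and voom 10, and for mock over YG8JR 15 and 10. Both called 0 for mPPL-001 over mock. With an unadjusted p under 0.05, edgeR had 0 members for mPPL-001 over mock (DESeq2 0, voom 6) and 7 for mPPL-001 over YG8JR (DESeq2 3, voom 9). It had 2 for mock over YG8JR (DESeq2 2, voom 1) and 3 for YG8JR over WT (DESeq2 2, voom 1). For mPPL-001 over WT it had 0 (DESeq2 0, voom 2), and for mock over WT 0 (DESeq2 0, voom 0). The share of all genes under that unadjusted threshold is not given here, so nothing about the members is read from these counts.

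The values of the groups overlapped widely. The summed Hox level averaged 16.3 ± 31.2 CPM in mPPL-001 (n = 5), 28.4 ± 38.8 CPM in mock (n = 4), 156 ± 240 CPM in YG8JR (n = 3) and 11.5 ± 17.9 CPM in WT (n = 3). Each SD was larger than its mean. The median log2 fold change of the 18 tested members was -0.82 for mPPL-001 over mock, -2.45 for mPPL-001 over YG8JR and -1.52 for mock over YG8JR, with all-gene medians of 0.02, 0.02 and -0.01. It was 2.19 for YG8JR over WT, -0.23 for mPPL-001 over WT and 0.63 for mock over WT, with all-gene medians of 0, 0.01 and -0.01. The comparisons with YG8JR share the same 3 YG8JR libraries, YG8JR replicate 3 among them, and those with WT share the same 3 WT libraries.

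Hoxd1 and Hoxb8 had the smallest unadjusted p-values for mPPL-001 over YG8JR. Hoxd1 had a log2 fold change of -3.78 (SE 1.06, edgeR adjusted p = 0.94) and Hoxb8 had -6.62 (SE 2.07, edgeR adjusted p = 0.94). For mock over YG8JR they had -3.14 (SE 1.10) and -4.82 (SE 2.01), and for YG8JR over WT 3.46 (SE 1.57, edgeR adjusted p = 0.181) and 6.96 (SE 3.07, edgeR adjusted p = 0.178). None of these passed. Without mPPL-001 replicate 1, 1 member (Hoxd3, lower) was called for mPPL-001 over YG8JR, with 0 in the fit of all libraries. Within batch A alone (22 members tested) and within batch B alone (2 tested), edgeR called 0 members in each of the 6 comparisons, with lone libraries assumed to vary like the others. A test of whether group differences were unlike in the 2 batches called 0 members and 0 of 28145 genes for mPPL-001 over mock, mPPL-001 over YG8JR, mock over YG8JR and YG8JR over WT.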

How the data were processed

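The deposited values are raw counts per gene for 15 libraries, made by the authors with STAR on GRCm39, per the submitters' processing notes. Not given in the sources used here: the counting tool, its strand setting, the annotation. Gene symbols came with a reference table that matched 55141 identifiers (99.4%), and lengths and overlaps came from GENCODE M21. Genes were filtered with edgeR's filterByExpr (minimum count 10, total 15), scaled by TMM and tested with edgeR 4.0.16 (quasi-likelihood, robust) in a model of group and batch over all 15 libraries, with Benjamini-Hochberg adjustment at 0.05, in R 4.3.3. CPM are TMM-scaled. SE is the log2 fold change over the square root of F. Alternatives used DESeq2 1.42.0, voom in limma 3.58.1, other filters, other model terms and fewer libraries. The steps were tested on simulated data. No pair of libraries within a group was a duplicate (smallest chi-square per gene 20.6), and pairs across groups were not checked. Libraries of 16847839 to 38760039 counts set the precision, and floors and bounds cover counting error only. Values in every library are given for the 1 or 2 highest members of a paralogue group with a mean of at least 0.5 CPM, and of other lists the genes with the smallest p and the tissue markers Slc6a5, Chat and Gabra6 are named, except 1 that is not reported here. Hoxd13 with Evx2, Slc18a3, Pax5 and Six3 were picked out after their values were seen, as were En1, Emx2, Pax2 and Neurod6. The members and the lists were chosen with earlier results of these data known.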

Additional observations from a re-analysis of the deposited data

Results flagged for a closer look

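A test for a library far from the others of its set picked 19 of 84 sets, and the sets share libraries and members. Sums were tested as CPM without a log, and single members as log2 CPM. The nominal rate of about 1 in 20 holds for normally spread values. The sums were strongly skewed (1.18 to 433 CPM in batch A, median 32.3), so that rate does not apply to them and the picks are a description. In batch A, YG8JR replicate 3 stood apart in the sum over all members (433 CPM, with the next library at 83.0 CPM), in cluster A (119 CPM, next 29.6), cluster B (237 CPM, next 30.7), cluster C (54.2 CPM, next 17.7) and cluster D (22.2 CPM, next 6.45). It also stood apart in paralogue groups 4 and 5 (228 CPM, next 56.1), groups 6 to 8 (160 CPM, next 6.94) and groups 9 to 13 (1.09 CPM, next 0.406). In groups 1 to 3 it was not picked. For Hoxb7 alone its log2 CPM was 3.08, with the next library at -1.69.

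In the mPPL-001 group, replicate 1 stood apart in the sum over all members (72.0 CPM, next 4.94), in cluster A (28.1 CPM), cluster B (26.5 CPM), cluster C (11.4 CPM) and cluster D (6.00 CPM). The same library stood apart in paralogue groups 1 to 3 (23.3 CPM), groups 4 and 5 (43.7 CPM) and groups 6 to 8 (4.77 CPM). In the mock group, replicate 3 stood apart in groups 6 to 8 (6.94 CPM, next 1.04) and in Hoxb7 (log2 CPM -1.74, next -3.95). These 2 libraries and YG8JR replicate 3 are all of batch A.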

How the results depend on the processing

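Of the 18 members tested, 16 were called higher in batch A, and 0 were called lower under any setting run. In the fits with a filter that direction was bound in advance, so the counts are descriptions. Over all 24989 genes of the main fit, 7987 were called in either direction. The count of members called moved to 10 with a stricter filter (CPM of at least 1 in 5 libraries), which left 10 members to test. It moved to 8 with no group term, which left 8, and to 10 of 13 tested with transplanted libraries only. Genes called in either direction in these fits were 7237 of 18102, 7992 of 22200 and 6457 of 23489, in that order. The count of members was 16 with RLE scaling, 14 with no filter, 15 with DESeq2 (which gave Hoxb3 no adjusted p), 11 with voom and 13 with YG8JR libraries only. Of 24989 genes, RLE scaling called 7864 in either direction, DESeq2 8913 and voom 9871. With no filter 7159 of 42614 genes were called, and with YG8JR libraries only 8368 of 24195. Leaving out 1 library at a time gave 12 to 19 members, with 12 without mock replicate 3 or YG8JR replicate 1. Without mPPL-001 replicates 3 and 4 it was 17, and 17 again without YG8JR replicate 3 as well; these libraries were chosen after seeing their Hox levels, which fixes the direction of the change. With the replicate block 12 members were called higher in batch A and 0 in each group comparison. The main model did not take the numbers as pairs. Of 19 same-numbered pairs, 6 had a correlation over 0.1 (range -0.41 to 0.36). That cannot decide whether the numbers pair the libraries, since differently numbered libraries were not compared. Group comparisons had 0 members in every setting run except mPPL-001 over YG8JR, with 0 to 1 when 1 library was left out. Hoxb8 lost its call with no filter (adjusted p = 0.12), voom (0.442), the replicate block (0.562), YG8JR libraries only (0.113) and in 6 of the fits without 1 library (0.0741 to 0.191). Hoxc6 lost it with no filter (0.193), voom (0.217), the block (0.0535), YG8JR libraries only (0.0796) and without YG8JR replicate 1, WT replicate 2 or WT replicate 3 (0.0585 to 0.0792). Hoxd1 lost it with no filter (0.0729), the block (0.0763) and without mock replicate 3 (0.0567) or YG8JR replicate 1 (0.0943). Hoxb8, Hoxc6 and Hoxd1 failed the filter, and were not tested, with the stricter filter, no group term or transplanted libraries only. Hoxb8 and Hoxc6 were also not tested without mPPL-001 replicate 1 or mock replicate 3. Hoxa5 lost its call with voom (0.154), and Hoxb5 with voom (0.202) and transplanted libraries only (0.0595). Hoxb6 was called with DESeq2 (0.0138), transplanted libraries only (0.0488) and 5 of the fits without 1 library. For these the cause was not tested. Depth limits groups 9 to 13, where 0 to 3 counts were usual.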
